A study of Mus musculus with 2 samples.

Results

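Collagen genes are described here in the injured mouse lung, with Pclaf intact (WT) or knocked out (KO). The members were all genes of the deposited tables whose symbol has the form of a collagen chain (Col, a type number, the letter a and a chain number), which gave 44 of 31053 genes. No expression value entered this choice. Mice aged 8 to 10 weeks, with or without a knockout of Pclaf (PCNA clamp associated factor, a proliferation-linked gene), received 1.35 U/kg bleomycin, a DNA-damaging drug that injures the alveoli, and lungs were taken after 1 week. Both groups therefore carried the injury, and no uninjured lung was analysed here. Cells were sorted for EpCAM and against Cd31 and Cd45, and 1 scRNA-seq library was made per genotype. The number of mice behind each library is not given in the sources used here, so a difference between WT and KO and a difference between the 2 libraries cannot be told apart, and no p-value is given.

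Collagens are trimers of alpha chains wound into a triple helix. Fibrillar types I, III and V form the load-bearing fibers of the interstitium, type IV forms the sheet-like network of basement membranes, and type VI forms beaded filaments that link both. Fibril-associated types sit on fiber surfaces, multiplexins carry proteoglycan chains near basement membranes, and transmembrane types stay anchored in the plasma membrane. In the lung, type IV networks underlie AT1 cells and capillaries, and fibroblasts are the main source of fibrillar collagen after injury.

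The WT library held 30669 barcodes and 98171818 UMIs, and the KO library 17172 barcodes and 111267567 UMIs, both more barcodes than the 16000 cells that were loaded. After filters on detected genes and mitochondrial share, 30187 WT and 15637 KO cells were kept, with a median of 2127 and 5957 UMIs per cell, and 163 barcodes occurred in both libraries. Only 5.93% of the WT cells were epithelial, against 72.7% in KO, although both libraries carried an epithelial sort. The mesenchymal share was 13.5% in WT and 19.5% in KO, and the endothelial share 34.1% and 3.54%. The libraries thus held different cell mixtures, and every collagen value below is given within a class of cells. Clusters of mixed lineage (4746 WT and 1294 KO cells) or without a class name were left out of the classes. Those without a name held 3773 WT and 186 KO endothelial, 1535 and 494 mesenchymal, 2039 and 130 immune, and 38 and 451 epithelial cells. Named classes held 21894 of the 44492 Col4a1 UMIs of kept WT cells and 21398 of 25537 in KO. Pclaf itself measured 39.3 CPM (UMIs for every 1000000 of the library) in WT and 5.19 in KO, and Xist, which is expressed from the inactive X chromosome of females, was detected in both at 254 and 498. The study's methods describe male mice, and this conflict was not resolved here.

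Levels are in CPM, the UMIs of a gene for every 1000000 UMIs of the class in a library, and the range in parentheses is the exact 95% Poisson interval. Such intervals cover counting error only. The assay counts molecules by their 3' ends, so levels of different genes were compared without a length correction. Classes were named from marker lists that held no collagen, and collagens did not enter the clustering. The mesenchymal and mesothelial classes comprised 807 WT and 1517 KO alveolar fibroblasts, 288 and 326 activated fibroblasts, 112 and 100 adventitial fibroblasts, 112 and 143 ductal fibroblasts, 123 and 32 pericytes, 242 and 102 smooth muscle cells, and 101 and 167 mesothelial cells. General capillary cells numbered 2397 and 156, aerocytes 808 and 55, venous endothelial cells 534 and 41, AT1 cells 407 and 437, and Krt8-high transitional cells 243 and 1528. Activated fibroblasts, which 4 of 9 alternative cell filters and clusterings did not name as a class, rested on 5 of 10 markers. All 10 markers summed to 3648 in WT and 1878 in KO. Their mean log2 fold in this cluster was 1.70, close to the 1.56 of the adventitial markers, so the 2 names were nearly tied. Col1a1, Col1a2, Col3a1 and Col5a2 stood among the leading genes of activated fibroblasts, beside the activated marker Timp1 and the adventitial marker Mfap5. Surfactant transcripts, which AT2 cells make, were higher in KO in each of these classes. They measured 13777 CPM in KO mesothelial cells against 1207 in WT, and 12845 in KO pericytes against 314 in WT. In alveolar fibroblasts they were at 1510 in KO and 197 in WT, in smooth muscle at 4641 and 1059, and in general capillary cells at 2682 and 265. Epithelial markers summed to 789 in KO and 439 in WT mesothelial cells, and to 140.4 and 34.9 in pericytes. Their part in the collagen values was not tested.

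B, T and NK lymphocytes, which should lack fibrillar collagens, were taken as the measure of background. Their summed fibrillar level was 185 (178 to 193) in WT and 51.0 (33.9 to 73.8) in KO, and their summed type IV level was 120.4 (115 to 126) in WT and 52.9 (35.4 to 75.9) in KO. By this measure background was higher in WT, and values near these levels are not read as expression. Col3a1 gave 1010 of 14212026 UMIs in WT lymphocytes but a smaller share in other WT immune classes. It gave 209 of 9531326 UMIs in interstitial macrophages and 42 of 1738700 in neutrophils. The lymphocyte class kept doublets, which Scrublet called for 9.39% of all kept WT and 2.95% of KO cells. A B cell cluster in it held 309 WT and 0 KO cells, and a T cell cluster 157 and 1. That T cell cluster also had interstitial macrophage markers, at a mean log2 fold of 2.03. Whether the lymphocyte level held more than free RNA was not tested, and values with lymphocyte levels subtracted carry this limit.

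Collagens took their largest share of transcripts in adventitial fibroblasts, where the 44 genes together made up 3.18% in WT and 2.49% in KO. The shares were 2.28% in WT and 1.92% in KO for activated fibroblasts, 1.37% in WT and 1.12% in KO for ductal fibroblasts and 1.25% in WT and 1.198% in KO for alveolar fibroblasts. Pericytes held 0.843% in WT and 0.879% in KO, smooth muscle 0.802% in WT and 0.683% in KO, and mesothelial cells 0.527% in WT and 0.608% in KO. AT1 cells, at 0.359% in WT and 0.505% in KO, were above general capillary cells at 0.24% in WT and 0.169% in KO and transitional cells at 0.113% in WT and 0.105% in KO. Of the pooled classes, fibroblasts thus led, mural and mesothelial cells followed and AT1 cells came next in both libraries. Ductal stood above alveolar fibroblasts in WT and below them in KO. The deep AT1 cluster described below was at 0.652% in WT and 0.610% in KO, not below mesothelial cells. All 44 genes gave at least 1 UMI in each library. A top class could be ranked for genes with at least 50 UMIs over the named classes, which held for 31 genes in WT, 34 in KO and 30 in both, and 27 of these 30 were highest in the same class in both libraries. Collagens whose interval lay wholly above that of lymphocytes numbered 28 in WT and 22 in KO for alveolar fibroblasts, 32 and 24 for adventitial fibroblasts and 7 and 2 for general capillary cells. Such counts vary with the number of UMIs. Lymphocytes had 14212026 UMIs in WT and 548692 in KO, and general capillary cells 5087105 and 388159. The share over all genes was not computed, and the counts are not read as a difference between libraries. The interval of the top class lay clear of that of the next class for 18 genes in WT and 22 in KO.

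**Figure D1:**
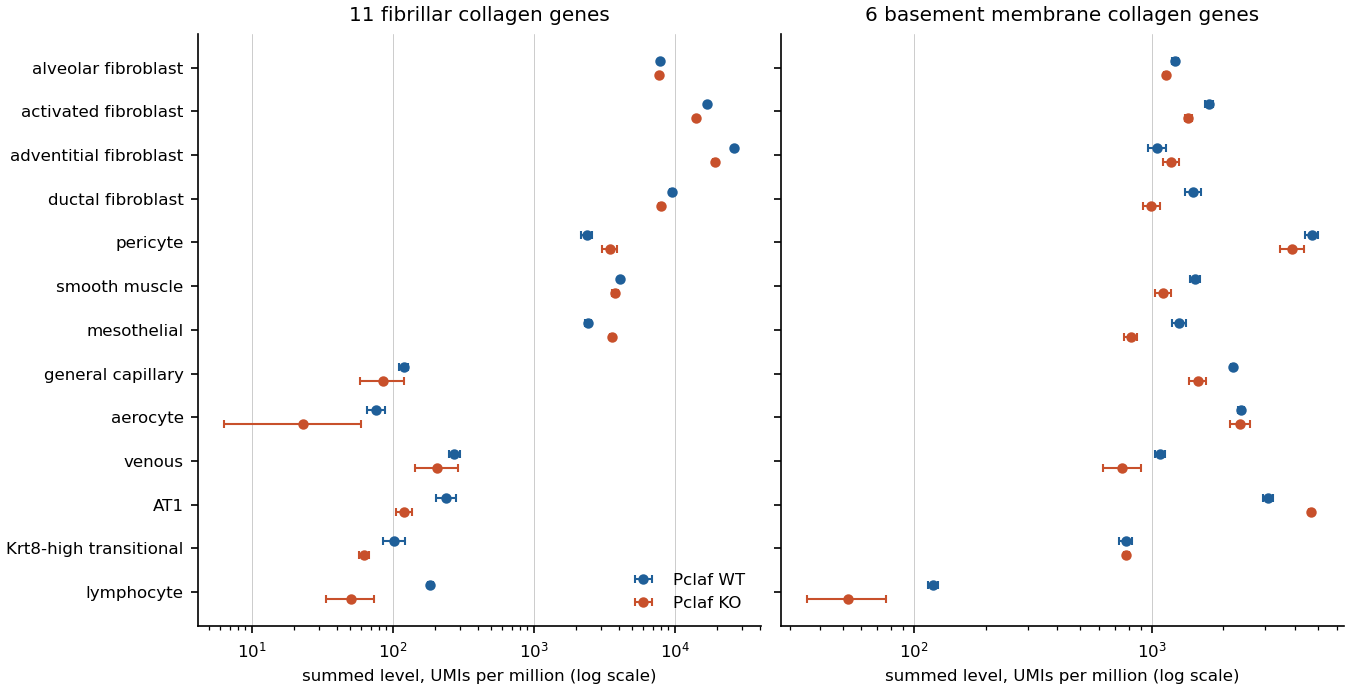
Summed levels of the 11 fibrillar and the 6 type IV (basement membrane) collagen genes in 12 cell classes and in lymphocytes (horizontal log axis, CPM), with Pclaf WT in blue, Pclaf KO in orange and bars for the exact 95% Poisson interval. Fibrillar levels separate mesenchymal and mesothelial classes, at 2385 and above, from endothelial and epithelial ones, at 274 and below, whereas type IV levels are highest in pericytes and AT1 cells.

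Fibrillar collagens were highest in adventitial fibroblasts, the cells of the bronchovascular sheath, with a summed level of 26321 (25849.6 to 26798) in WT and 19204 (18840.2 to 19574) in KO. Activated fibroblasts followed with 16880.3 (16688 to 17074) in WT and 14066 (13915 to 14219) in KO. The level in adventitial over activated fibroblasts was 1.56-fold (1.53 to 1.59) in WT and 1.37-fold (1.34 to 1.40) in KO, and over alveolar fibroblasts it was 3.33-fold (3.25 to 3.398) in WT and 2.48-fold (2.43 to 2.53) in KO. Ductal fibroblasts, the cells of alveolar ducts, had 9608 in WT and 7954 in KO, and alveolar fibroblasts, which lie next to AT2 cells, had 7915 in WT and 7747 in KO. Smooth muscle reached 4118 in WT and 3777 in KO, mesothelial cells 2436 in WT and 3601 in KO and pericytes 2385 in WT and 3467 in KO.

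Col3a1, the chain of type III collagen of extensible tissues, was the most abundant collagen in all 4 fibroblast classes of both libraries. In adventitial fibroblasts its level was 11501 (11190.5 to 11818) in WT and 8132 (7895 to 8373) in KO. It was 6512 in WT and 6281 in KO in activated, 5479 in WT and 4507 in KO in ductal and 3231 in WT and 3349 in KO in alveolar fibroblasts. Of the 4 fibroblast classes, ductal fibroblasts had the largest weight of Col3a1, which made up 40.1% of their collagen UMIs in each library. It made up 36.2% in WT and 32.7% in KO in adventitial, 28.5% in WT and 32.7% in KO in activated and 25.9% in WT and 28.0% in KO in alveolar fibroblasts. Col1a2 and Col1a1, the chains of type I collagen, came next. Col1a2 measured 7583 (7331 to 7841) in WT and 5773 (5574 to 5977) in KO in adventitial, 4853 in WT and 3779 in KO in activated, 2376 in WT and 2291 in KO in alveolar and 1569 in WT and 1220.0 in KO in ductal fibroblasts. Col1a1 measured 5587 (5371 to 5809) in WT and 3913 (3750.0 to 4082) in KO in adventitial, 3421 in WT and 2516 in KO in activated, 1309 in WT and 1269 in KO in alveolar and 1271 in WT and 1194 in KO in ductal fibroblasts. Although type I trimers hold more alpha 1 than alpha 2 chains, Col1a1 UMIs were fewer than Col1a2 UMIs in the 7 mesenchymal and mesothelial classes, and their ratio was 0.551 (0.531 to 0.571) in WT and 0.554 (0.541 to 0.567) in KO for alveolar fibroblasts, but 0.81 (0.723 to 0.907) in WT and 0.979 (0.879 to 1.09) in KO for ductal fibroblasts.

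Promoter sequences of fibrillar genes are shown because Col1a2 and Col3a1 led the same classes, adventitial before activated fibroblasts in both libraries, while their starts differ in base composition. Each window runs from 250 bases before to 50 bases after the annotated start (RefSeq, GRCm38.p6, 5' to 3' on the gene's strand), and capitals mark the motif named. The Col1a2 window (chr6:4505368-4505667, plus strand, 61.0% G or C) held 2 CCAAT boxes, 1 of them as the reverse complement.
Col1a2: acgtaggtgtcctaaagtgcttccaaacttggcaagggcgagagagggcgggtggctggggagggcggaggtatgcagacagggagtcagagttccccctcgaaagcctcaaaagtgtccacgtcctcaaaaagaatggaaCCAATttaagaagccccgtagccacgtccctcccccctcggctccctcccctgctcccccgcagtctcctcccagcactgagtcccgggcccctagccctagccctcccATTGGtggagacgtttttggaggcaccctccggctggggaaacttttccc
The Col3a1 window (chr1:45311288-45311587, plus strand, 37.7% G or C) held 1 TATAAA and no CCAAT.
Col3a1: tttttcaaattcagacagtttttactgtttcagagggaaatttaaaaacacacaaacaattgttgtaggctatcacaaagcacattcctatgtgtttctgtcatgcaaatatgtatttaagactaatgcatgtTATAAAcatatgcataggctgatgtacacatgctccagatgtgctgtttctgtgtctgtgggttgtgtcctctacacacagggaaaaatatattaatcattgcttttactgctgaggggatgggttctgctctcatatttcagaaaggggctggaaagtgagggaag
Searched on both strands, CCAAT was present in 13 of the 35 collagen genes with a window and in 37.4% of all 32851 promoter windows, and TATAAA in 5 of 35 and 13.6%. GGGCGG, the core of a GC box, was found in 22 of 35 collagen genes and in 35.7% of all windows. A CCAAT on the reverse strand can share its outer G bases with a GC box, and such overlaps were not removed. The other 9 collagen genes, Col1a1 and Col4a3 among them, had no window.

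Col5a1 and Col5a2 encode chains of type V collagen, which sets fibril diameter. Col5a2 was highest in activated fibroblasts, at 1339 (1285 to 1395) in WT and 977 (937 to 1017) in KO, with cycling mesenchymal cells at 1095 in WT and 629 in KO. Of the other fibroblasts, it was next in adventitial, at 853 in WT and 767 in KO, ductal, at 755 in WT and 651 in KO, and alveolar fibroblasts, at 652 in WT and 545 in KO. Col5a1 was highest in adventitial fibroblasts instead, at 600.3 (531 to 676) in WT and 506 (449 to 569) in KO. The ratio of Col5a1 to Col5a2 was 0.704 (0.6 to 0.824) in WT and 0.66 (0.565 to 0.769) in KO there, and 0.356 (0.328 to 0.386) in WT and 0.34 (0.321 to 0.361) in KO in alveolar fibroblasts. Venous endothelial cells and AT1 cells had Col5a2 with next to no Col5a1. In venous cells Col5a2 measured 197 (176 to 219) in WT and 165 (109 to 240.1) in KO and Col5a1 7.22 in WT and 6.11 in KO. In AT1 cells Col5a2 measured 61.3 (42.9 to 84.8) in WT and 88.5 (75.8 to 103) in KO, while Col5a1 gave 1 UMI in WT and 0 UMIs in KO. Lymphocytes had Col5a2 at 13.2 in WT and 9.11 in KO, and the Col5a1 to Col5a2 ratio of their UMIs in WT was 0.415 (0.314 to 0.543), against 0.0367 (0.0188 to 0.065) in WT venous cells. Minor fibrillar chains were low. Col27a1 peaked at 113 (98.2 to 130.4) in WT activated fibroblasts and at 112 (48.5 to 221) in KO pericytes, Col5a3 measured 194 (147 to 251) in WT cycling mesenchymal cells. In activated fibroblasts Col5a3 was 122 in WT and 65.9 in KO and Col24a1 28.1 in WT and 25.2 in KO.

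Beaded-filament type VI chains had a flatter profile over fibroblasts than fibrillar ones. Col6a1 was highest in activated fibroblasts, at 1136 (1086 to 1187) in WT and 1073 (1031 to 1116) in KO, and its interval overlapped that of adventitial fibroblasts, at 1057 (964 to 1156) in WT and 979.7 (899 to 1066) in KO. In alveolar fibroblasts Col6a1 measured 853 in WT and 833 in KO, Col6a2 543 in WT and 531 in KO, and Col6a3, the long chain of the trimer, 850.3 in WT and 765 in KO. Activated fibroblasts had Col6a2 at 846 in WT and 747 in KO and Col6a3 at 1076 in WT and 882 in KO, and ductal fibroblasts Col6a3 at 753 in WT and 583 in KO. The 3 chains commonly join in a type VI trimer, and their levels were uneven in mesothelial cells, the lining of the pleura. There Col6a1 measured 773 (706 to 845) in WT and 617 (574 to 662) in KO and Col6a2 372 in WT and 330.2 in KO, but Col6a3 only 28.4 (16.8 to 44.9) in WT and 63.3 (50.02 to 79.0) in KO. The ratio of Col6a1 to Col6a3 UMIs was 27.2 (17.0 to 46.3) in WT and 9.74 (7.71 to 12.5) in KO in mesothelial cells, compared with 1.003 (0.953 to 1.06) in WT and 1.09 (1.05 to 1.13) in KO in alveolar fibroblasts. AT2 cells also had Col6a1, at 130.2 (106 to 159) in WT and 113 (109 to 116) in KO, with Col6a3 at 0 in WT and 1.52 in KO, and a ratio of Col6a1 to Col6a3 of 74.2 (57.6 to 97.1) in KO. Of the later type VI chains, Col6a5 and Col6a6 were highest in KO mesothelial cells, at 70.6 (56.5 to 87.1) and 33.3 (23.9 to 45.1), with 0 and 2 UMIs in WT mesothelial cells.

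Other collagens differed in level between fibroblast types. Col13a1, a transmembrane collagen of cell-matrix contacts, was an alveolar fibroblast gene, at 403 (382 to 424) in WT and 398 (384 to 412) in KO, was lower in activated fibroblasts, at 209 in WT and 248 in KO, and low in adventitial fibroblasts, at 17.7 in WT and 56.2 in KO. Col14a1, a fibril-associated chain, was highest in adventitial fibroblasts, at 1008 (917 to 1105) in WT and 1054 (970.1 to 1143) in KO. That was 9.21-fold (8.02 to 10.6) in WT and 8.59-fold (7.74 to 9.53) in KO above alveolar fibroblasts. Ductal fibroblasts had Col14a1 at 340 in WT and 353 in KO and activated ones at 176 in WT and 239 in KO. Col15a1, a multiplexin at the junction of basement membrane and interstitium, had the same top class, at 343 (291 to 402) in WT and 388 (338 to 444) in KO in adventitial and 16.04 in WT and 7.90 in KO in alveolar fibroblasts. Col12a1, which bridges fibrils under strain, was highest in ductal fibroblasts, at 289.7 (242 to 345) in WT and 236 (198 to 279) in KO, and next in AT1 cells, at 175 (143 to 213) in WT and 196 (177 to 217) in KO. The 2 KO intervals overlapped, and the deep AT1 cluster described below had Col12a1 at 361 in WT and 233 in KO. These 4 genes were thus divided over 3 fibroblast classes, and each was highest in the same class in both libraries. Col16a1 was spread more evenly, at 159 in WT and 130.5 in KO in activated and 94.8 in WT and 90.7 in KO in alveolar fibroblasts, and Col28a1 reached 55.0 in WT and 50.9 in KO in activated fibroblasts.

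**Figure D2:**
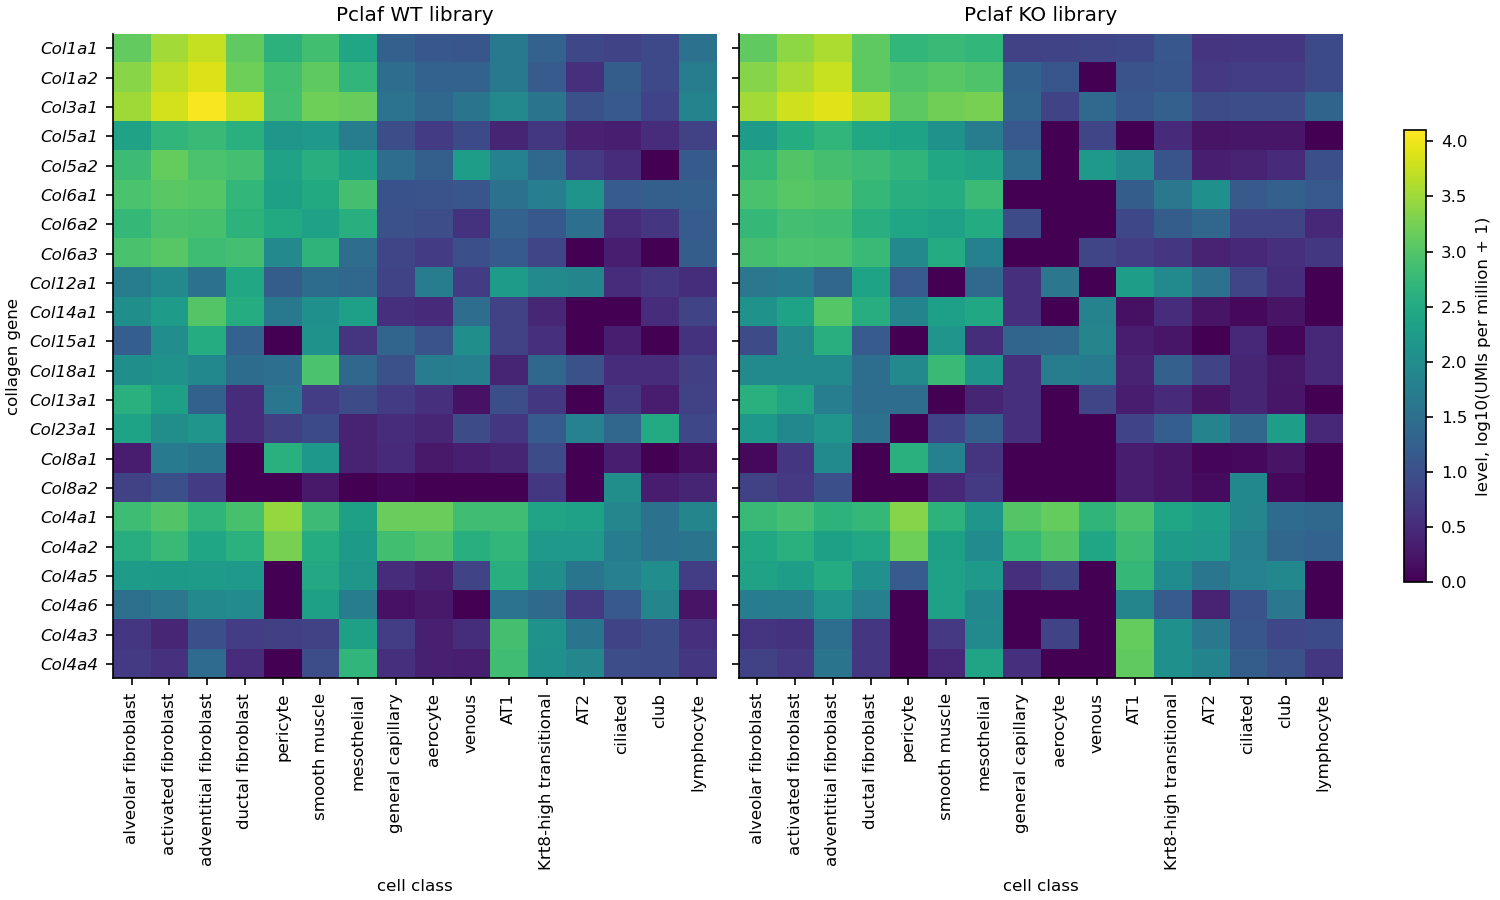
Levels of the more abundant collagen genes (vertical) in cell classes (horizontal) of the Pclaf WT and the Pclaf KO library, as log10(CPM + 1) on a color scale. Fibrillar and type VI chains fill the fibroblast columns, Col4a1 and Col4a2 are brightest in pericytes, and Col4a3 and Col4a4 in AT1 cells.

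Of the pooled classes, type IV collagen was highest in pericytes, the mural cells of capillaries, in WT, and in AT1 cells, which cover the gas-exchange surface, in KO. Its summed level was 4696 (4401 to 5006) in WT and 3889 (3444 to 4374) in KO in pericytes. In AT1 cells it was 3079 (2939 to 3224) in WT and 4682 (4587 to 4779) in KO. AT1 cells comprised 2 clusters, described below, and the deep one held 41 WT and 221 KO cells, the shallow one 366 and 216. The deep cluster was at 6040 in WT and 5718 in KO, above pericytes in both libraries, and the shallow one at 1770 in WT and 2231 in KO. Aerocytes, the large capillary cells facing AT1 cells, had 2376 in WT and 2356 in KO, and general capillary cells 2197 in WT and 1559 in KO. Activated fibroblasts had 1742 in WT and 1421 in KO, smooth muscle 1521 in WT and 1113 in KO, ductal fibroblasts 1487 in WT and 995 in KO, alveolar fibroblasts 1247 in WT and 1147 in KO, adventitial fibroblasts 1052 in WT and 1201 in KO, venous cells 1082 in WT and 752 in KO and transitional cells 775 in WT and 781 in KO. Mesothelial cells were at 1303 in WT and 816 in KO. Pericytes exceeded general capillary cells 2.14-fold (2.00 to 2.28) in WT and 2.49-fold (2.16 to 2.88) in KO and alveolar fibroblasts 3.77-fold (3.51 to 4.04) in WT and 3.39-fold (3.00 to 3.82) in KO.

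Type IV chains form separate networks, and their genes lie in head-to-head pairs. Col4a1 and Col4a2 build the network found in nearly all basement membranes. Col4a1 in pericytes measured 2873 (2644 to 3118) in WT and 2302 (1963 to 2683) in KO and Col4a2 1818 (1636 to 2014) in WT and 1572 (1295 to 1892) in KO. General capillary cells had Col4a1 at 1459 in WT and 1002 in KO and Col4a2 at 728 in WT and 551 in KO, and aerocytes 1458 in WT and 1373 in KO and 913 in WT and 971 in KO. Of the 12 mesenchymal, mesothelial, endothelial and alveolar epithelial classes, mesothelial cells had the lowest Col4a1, at 216 in WT and 141 in KO, with Col4a2 at 174 in WT and 94.9 in KO. Club cells, at 33.5 in WT and 26.0 in KO, were below the lymphocyte level in WT, 71.8, and near it in KO, 23.7. Ductal fibroblasts had Col4a1 at 814 in WT and 534 in KO, smooth muscle at 649 in WT and 453 in KO and venous cells at 702 in WT and 489 in KO, with Col4a2 at 371 in WT and 263 in KO in the last. While the level of Col4a1 varied 13.3-fold in WT and 16.3-fold in KO over the 12 classes, its ratio to Col4a2 stayed between 1.25 and 2.01 in WT and between 1.31 and 2.16 in KO.

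The 2 starts of this pair overlap by 22 bases on chromosome 8, Col4a2 at 11312805 on the plus strand and Col4a1 at 11312826 on the minus strand. The Col4a1 window is shown because the chain pair that kept the steadiest ratio shares it, with the overlap in capitals (RefSeq, GRCm38.p6, chr8:11312777-11313076, minus strand, 74.0% G or C).
Col4a1: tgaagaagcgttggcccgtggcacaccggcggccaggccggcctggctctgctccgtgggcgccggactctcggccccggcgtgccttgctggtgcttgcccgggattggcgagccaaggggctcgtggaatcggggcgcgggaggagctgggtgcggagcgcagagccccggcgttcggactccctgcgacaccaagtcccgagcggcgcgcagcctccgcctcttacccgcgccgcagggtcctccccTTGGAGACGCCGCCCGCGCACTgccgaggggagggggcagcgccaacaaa
Col4a3, Col4a4 and Col4a5 build the network of the alveolar and glomerular basement membranes. They were highest in AT1 cells in both libraries. Col4a3 measured 774 (705 to 849) in WT and 1357 (1306 to 1409.9) in KO, Col4a4 694 (629 to 765) in WT and 1234 (1185 to 1284) in KO and Col4a5 364 (317 to 416) in WT and 544 (511 to 577) in KO, while Col4a1 was 688 in WT and 836 in KO and Col4a2 523 in WT and 639 in KO in the same cells. Col4a3 in AT1 over AT2 cells was 20.6-fold (14.1 to 31.4) in WT and 31.2-fold (29.4 to 33.2) in KO. Transitional cells, which stand between AT2 and AT1 cells, had all 5 at lower levels, with Col4a1 at 245 in WT and 265 in KO, Col4a2 at 159 in WT and 176 in KO, Col4a3 at 120.4 in WT and 115 in KO, Col4a4 at 115 in WT and 112 in KO and Col4a5 at 111 in WT and 99.04 in KO. Mesothelial cells had Col4a4 at 503 (449.6 to 562) in WT and 249.9 (223 to 279) in KO and Col4a3 at 211 (177 to 250.4) in WT and 89.2 (73.3 to 108) in KO. In pericytes and in the 3 endothelial classes Col4a3 and Col4a4 did not exceed 5.82 CPM.

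Col4a3 and Col4a4 also start head to head, 71 bases apart on chromosome 1, Col4a4 at 82586849 on the minus strand and Col4a3 at 82586921 on the plus strand. The Col4a4 window carries that whole stretch, in capitals (RefSeq, GRCm38.p6, chr1:82586800-82587099, minus strand, 63.3% G or C), and held none of the 3 motifs.
Col4a4: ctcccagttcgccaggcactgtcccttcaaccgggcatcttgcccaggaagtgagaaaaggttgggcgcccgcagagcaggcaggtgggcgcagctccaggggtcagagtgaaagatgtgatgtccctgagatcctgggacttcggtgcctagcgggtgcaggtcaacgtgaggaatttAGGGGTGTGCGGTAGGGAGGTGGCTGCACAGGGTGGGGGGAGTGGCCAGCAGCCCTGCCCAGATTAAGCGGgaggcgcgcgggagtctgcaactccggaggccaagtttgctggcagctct
The balance of this pair differed more between cells than that of Col4a1 and Col4a2. Only 3 of the 12 classes in WT and 4 in KO had enough UMIs of Col4a3 and Col4a4. There the highest ratio was 2.65-fold in WT and 3.08-fold in KO above the lowest, which was that of mesothelial cells. For Col4a1 over Col4a2 the range was 1.61-fold in WT and 1.65-fold in KO, over 12 classes in each library. The ratio of Col4a1 to Col4a2 differed too, at 1.32 (1.13 to 1.53) in WT AT1 cells and 2.01 (1.93 to 2.09) in WT general capillary cells. In KO AT2 cells, outside the 12 classes, it was 1.17 (1.13 to 1.21). Col4a3 over Col4a4 was 1.12 (0.974 to 1.28) in WT and 1.10 (1.04 to 1.16) in KO in AT1 cells and 1.05 (0.817 to 1.34) in WT and 1.03 (0.94 to 1.12) in KO in transitional cells, but 0.42 (0.341 to 0.516) in WT and 0.357 (0.285 to 0.445) in KO in mesothelial cells and 0.475 (0.291 to 0.756) in WT and 0.632 (0.595 to 0.671) in KO in AT2 cells. Col4a5 and Col4a6, whose starts lie 1342 bases apart on chromosome X, varied most of the type IV pairs. Their ratio was 10.2 (6.50 to 16.8) in WT and 7.43 (6.24 to 8.91) in KO in AT1 cells and 1.41 (1.19 to 1.68) in WT and 1.03 (0.789 to 1.33) in KO in smooth muscle, where Col4a6 had its highest level, at 212 (185 to 241) in WT and 219 (182 to 263) in KO. Intervals of the AT1 and the smooth muscle ratios were apart in each library.

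**Figure D3:**
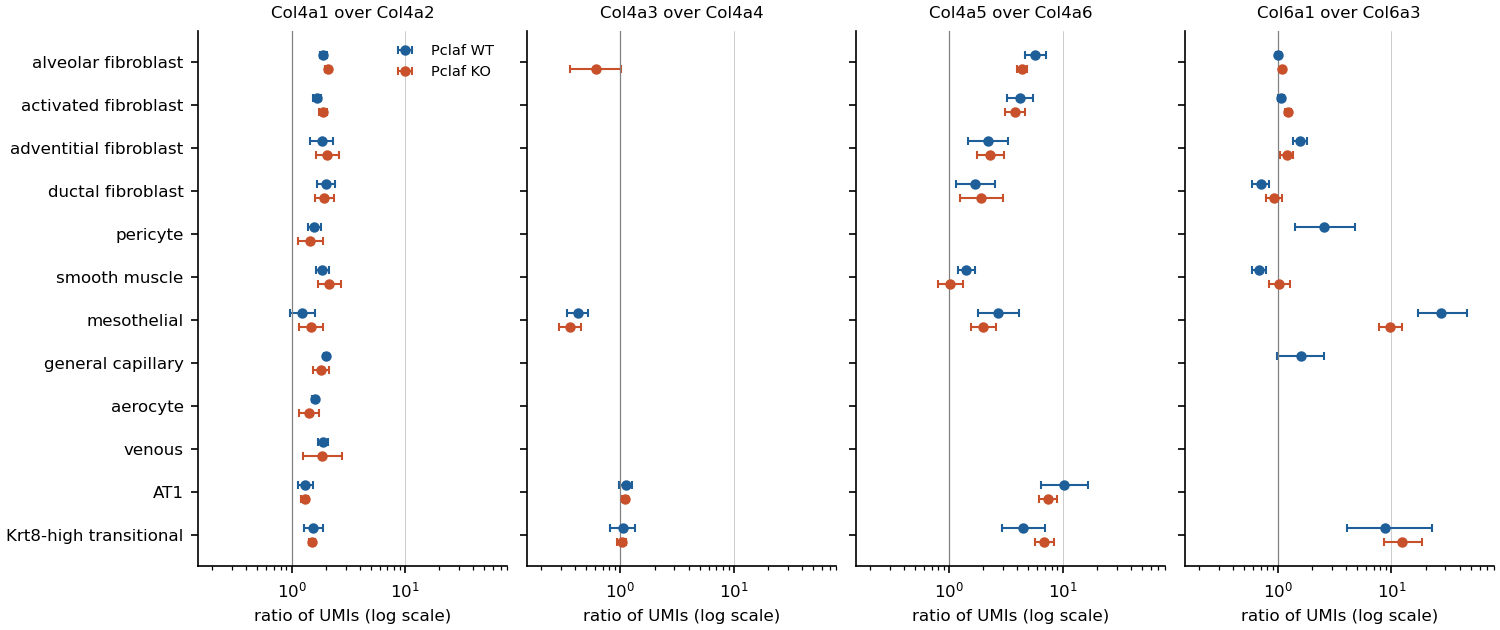
Ratio of UMIs of paired collagen chains (horizontal log axis) in those of 12 cell classes (mesenchymal, mesothelial, endothelial, AT1 and transitional) with at least 50 UMIs of the pair, Pclaf WT in blue and Pclaf KO in orange, with bars for the exact 95% interval. In these classes Col4a1 over Col4a2 stays between 1.25 and 2.16, Col4a5 over Col4a6 ranges from 1.03 in smooth muscle to 10.2 in AT1 cells, and Col6a1 over Col6a3 reaches 27.2 in WT mesothelial cells.

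Col18a1, the multiplexin whose cleaved end is endostatin, was a smooth muscle gene, at 881 (826 to 938) in WT and 574 (512 to 642) in KO. Aerocytes had 53.8 in WT and 52.4 in KO and venous cells 57.8 in WT and 48.9 in KO. Venous cells also had Col15a1 at 108 in WT and 73.3 in KO. Of the named classes, pericytes were highest in Col8a1, a short-chain collagen of vessel walls, at 398 (316 to 496) in WT and 393 (261 to 568) in KO. Smooth muscle came next in WT, at 153 (131 to 178). Col7a1, the anchoring-fibril chain, was also highest in pericytes, at 74.7 in WT and 42.1 in KO, where pericytes held only 71235 UMIs of all genes. Its interval overlapped that of the next class, activated fibroblasts at 36.1 in WT and adventitial fibroblasts at 18.1 in KO. In the airway epithelium, Col23a1, a transmembrane chain, measured 319 (282 to 359) in WT and 193 (183 to 202) in KO in club cells, and alveolar fibroblasts had 241 in WT and 154 in KO. Col8a2 was found in ciliated cells, at 107 (85.7 to 131) in WT and 81.8 (76.1 to 87.9) in KO, and stood at or below 9.17 in every other class named here. Ciliated cells were also the top class for Col26a1, at 24.9 in WT and 19.5 in KO. Col17a1, the hemidesmosome collagen, was highest in alveolar fibroblasts in WT, at 17.8 (13.6 to 22.8), and in goblet cells in KO, at 50.02 (41.7 to 59.5), where WT had too few goblet cells (20) to rank.

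Col20a1 and Col11a2 were ranked at no more than 15.5 CPM, Col11a2 in WT only. Col25a1, at 3.42 in KO activated fibroblasts, was ranked in KO only, as were Col26a1, Col6a5 and Col6a6. Col2a1, Col9a1, Col9a2, Col9a3, Col10a1, Col11a1, Col19a1, Col22a1 and Col6a4, which include the cartilage collagens, had fewer than 50 UMIs over the named classes of each library and are not placed.

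The share of cells with a UMI was compared after thinning each cell to 1000 UMIs, because depth differed between libraries. Col1a1 was then present in 60.2% (56.7 to 63.6) in WT and 61.6% (59.1 to 64.1) in KO of alveolar fibroblasts, 92.6% (85.3 to 97.0) in WT and 90.6% (82.9 to 95.6) in KO of adventitial fibroblasts and 2.18% (1.81 to 2.61) in WT and 0.529% (0.0134 to 2.91) in KO of lymphocytes. Col13a1 was present in 31.2% (28.0 to 34.6) in WT and 31.7% (29.4 to 34.2) in KO of alveolar fibroblasts, against 0.433% and 0% of lymphocytes, and Col4a1 in 97.5% (91.2 to 99.7) in WT and 88.9% (70.8 to 97.6) in KO of pericytes. Col8a1 was present in 27.8% (18.3 to 39.1) in WT and 33.3% (16.5 to 54.0) in KO of pericytes. Col4a3 was present in 38.5% (30.5 to 47.0) in WT and 63.3% (58.0 to 68.5) in KO of AT1 cells and 9.68% (6.09 to 14.4) in WT and 9.94% (8.41 to 11.6) in KO of transitional cells. Thinning left out 16 of 807 WT and 8 of 1517 KO alveolar fibroblasts but 264 of 407 WT and 96 of 437 KO AT1 cells. Without thinning, Col1a1 was present in 90.6% in WT and 94.3% in KO of alveolar fibroblasts and 4.63% in WT and 2.08% in KO of lymphocytes, and Col4a3 in 26.0% in WT and 70.0% in KO of AT1 cells.

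Between the libraries, fibrillar collagens were lower in KO than in WT in adventitial fibroblasts, with a log2 ratio of -0.45 (-0.49 to -0.42), in ductal fibroblasts, at -0.27 (-0.33 to -0.21), and in activated fibroblasts, at -0.26 (-0.29 to -0.24). They were higher in KO in mesothelial cells, at 0.56 (0.48 to 0.65), and in pericytes, at 0.54 (0.31 to 0.76). In alveolar fibroblasts, the largest mesenchymal class, the ratio was -0.03 (-0.05 to -0.01), and in smooth muscle -0.12 (-0.20 to -0.05). Type IV collagen was lower in KO in mesothelial cells, at -0.68 (-0.81 to -0.54), ductal fibroblasts, at -0.58 (-0.74 to -0.42), venous cells, at -0.53 (-0.80 to -0.26), general capillary cells, at -0.50 (-0.62 to -0.38), and smooth muscle, at -0.45 (-0.59 to -0.31). It differed less in pericytes, at -0.27 (-0.47 to -0.08), activated fibroblasts, at -0.29 (-0.36 to -0.22), adventitial fibroblasts, at 0.19 (0.02 to 0.36), and alveolar fibroblasts, at -0.12 (-0.17 to -0.07), and intervals included 0 in aerocytes, at -0.01 (-0.16 to 0.13), and transitional cells, at 0.01 (-0.09 to 0.11). Mesothelial cells thus combined a higher fibrillar with a lower type IV level in KO, also under the 12 alternatives that gave them a value. The fibrillar ratio of pericytes was -0.030 with a mitochondrial limit of 10% and at resolution 1.2, and the type IV ratio of venous cells was 0.059 with that limit and 0.11 without doublets. None of these sums reached a 2-fold difference. Scaling by TMM factors added 0.13 to the log2 ratio of alveolar and of ductal fibroblasts, 0.10 in smooth muscle and 0.17 in transitional cells, which turned the alveolar fibrillar ratio to 0.10.

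**Figure D4:**
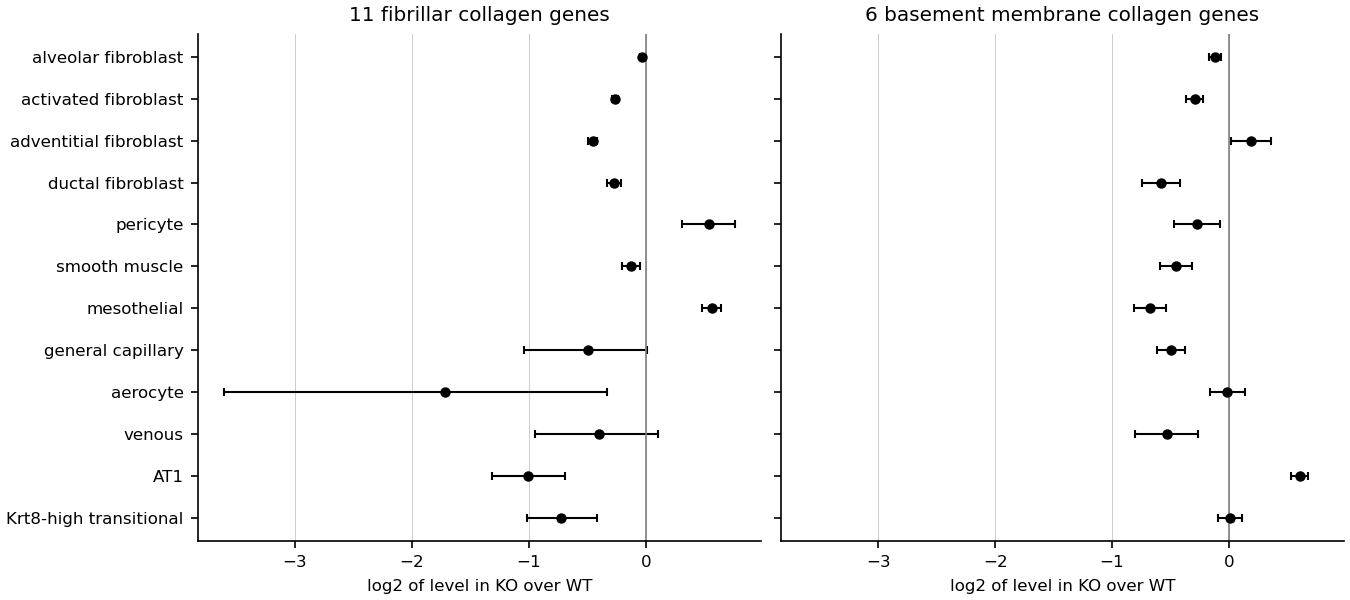
Log2 ratio of the summed level in Pclaf KO over Pclaf WT (horizontal axis) for 11 fibrillar and 6 type IV collagen genes in 12 cell classes, with bars for the exact 95% interval of 2 counts. Fibrillar ratios run from -0.45 in adventitial to 0.56 in mesothelial cells among the mesenchymal and mesothelial classes, and the type IV ratio is highest in AT1 cells, at 0.60.

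In AT1 cells fibrillar collagens measured 240.0 (202 to 283) in WT and 119.7 (105 to 136) in KO, and in transitional cells 103 (84.9 to 123) in WT and 62.3 (57.2 to 67.8) in KO. The log2 ratios were -1.004 (-1.31 to -0.69) and -0.72 (-1.01 to -0.42), and fibrillar levels in lymphocytes were likewise lower in KO, at 51.0 against 185. The shallow AT1 cluster had fibrillar collagens at 299 in WT and 105 in KO and the deep one at 105 in WT and 126 in KO. With lymphocyte levels subtracted, the AT1 ratio was 0.25. The part of the background in these ratios was not tested otherwise. Endothelial fibrillar levels were in the same range, with 119.5 in WT and 85.0 in KO in general capillary cells and 76.5 in WT and 23.3 in KO in aerocytes. Type IV collagen in AT1 cells stood well clear of the background, and its log2 ratio was 0.60 (0.53 to 0.68).

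AT1 cells fell into a shallow and a deep cluster, which the libraries filled unequally, and values within clusters were added after seeing the data. The deep cluster, with a median of 4558 UMIs per cell in WT and 5980 in KO, held 41 of 407 WT and 221 of 437 KO AT1 cells. Its type IV level was 6040.2 in WT and 5718 in KO, a log2 ratio of -0.08 (-0.17 to 0.01). The shallow cluster, with medians of 735 and 1198 UMIs, had 1769.7 in WT and 2231 in KO, a ratio of 0.33 (0.20 to 0.47). Within the deep cluster Col4a3 measured 1709.9 in WT and 1660.1 in KO, Col4a4 1499 in WT and 1512 in KO and Col4a5 749 in WT and 692 in KO, and the 3 intervals of the log2 ratio included 0. In the shallow cluster Col4a3 measured 361 in WT and 640.5 in KO, a ratio of 0.83 (0.55 to 1.11), while Col4a1 measured 520.4 in WT and 479 in KO. The difference of the pooled class was thus larger than that of either cluster. Under 13 other settings of scaling, cell filter and clustering the pooled ratio ranged from -0.35 to 0.65 and was below 0 in 8 of them.

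Alveolar fibroblasts fell into 3 clusters, and the same cluster had the highest fibrillar level in both libraries. Fibrillar levels were 5754 in WT and 5909 in KO in the first, 11017 in WT and 9859.9 in KO in the second and 7671 in WT and 6190.0 in KO in the third. The log2 ratios were 0.04 (0.00084 to 0.08), -0.16 (-0.19 to -0.13) and -0.31 (-0.40 to -0.22). The KO levels of 5909 and 6190.0 lay closer together than the WT and KO levels of 7671 and 6190.0. Col13a1, which was highest in this class, stayed between 334 and 473 in all of them, with 436 in WT and 429 in KO, 334 in WT and 359 in KO and 423 in WT and 473 in KO.

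**Figure D5:**
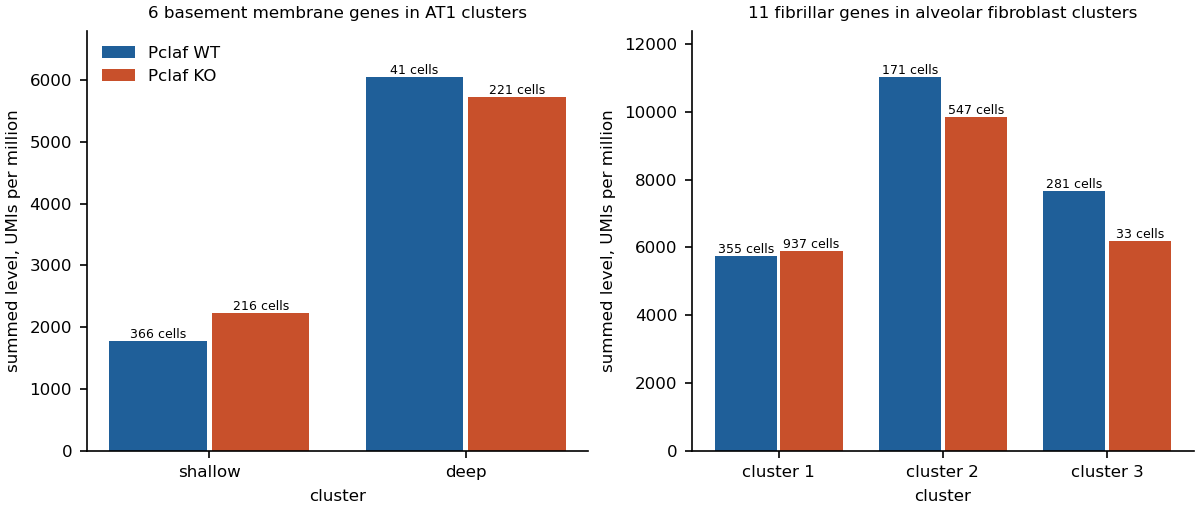
Summed levels (vertical axis, CPM) of 6 type IV collagen genes in the shallow and deep AT1 clusters and of 11 fibrillar genes in 3 alveolar fibroblast clusters, Pclaf WT in blue and Pclaf KO in orange, with the number of cells on each bar. Deep AT1 cells are at 6040 in WT and 5718 in KO, against 1770 and 2231 in shallow ones.

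Single collagens that differed at least 2-fold were few. Of genes with at least 50 UMIs in a class over both libraries, 0 of 27 collagens were at least 2-fold higher and 1 was lower in KO alveolar fibroblasts, where 0.854% of all genes were higher and 1.79% lower. The counts were 0 higher and 2 lower of 25 in activated fibroblasts (0.934% and 1.71% of all genes), 1 and 1 of 20 in adventitial fibroblasts (1.04% and 1.24%), and 0 and 0 of 16 in ductal fibroblasts (0.913% and 2.38%). Pericytes had 1 higher and 0 lower of 9 (1.25% and 4.32%), smooth muscle 0 and 1 of 18 (0.844% and 5.45%), and mesothelial cells 3 and 2 of 18 (3.93% and 2.64%). General capillary cells had 0 and 1 of 8 (2.12% and 7.41%), aerocytes 0 and 1 of 5 (2.26% and 9.33%), venous cells 1 and 0 of 7 (2.24% and 8.58%), AT1 cells 1 and 2 of 10 (5.17% and 2.68%), and transitional cells 0 and 2 of 16 (2.56% and 2.16%). Counts of 0 to 3 of so few genes do not set the collagens apart from all genes. The median log2 ratio over the collagens was below that over all genes tested in activated fibroblasts, at -0.33 against -0.04, and in ductal fibroblasts, at -0.37 against -0.13. The same held in venous cells, at -0.50 against -0.07, general capillary cells, at -0.47 against -0.10, and smooth muscle, at -0.32 against -0.14. Gaps were smaller in adventitial fibroblasts, at -0.11 against -0.04, transitional cells, at -0.11 against -0.08, and aerocytes, at -0.09 against -0.08. The collagen median was the higher one in mesothelial cells, at 0.12 against -0.08, and pericytes, at 0.26 against -0.07. So it was in AT1 cells, at 0.41 against 0.14, and alveolar fibroblasts, at -0.05 against -0.10.

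Mesothelial cells had 5 of these members, more than any other class described. Col18a1 there measured 23.7 (13.2 to 39.0) in WT and 129.8 (110.5 to 152) in KO, from 15 UMIs in 9 WT cells and 160 UMIs in 69 KO cells, a log2 ratio of 2.46 (1.69 to 3.33). Col6a3 had a ratio of 1.16 (0.40 to 1.98), with the levels given above. Col6a5 had 0 UMIs in WT and 87 UMIs in 25 KO cells, at least 14.9-fold higher than the WT limit of 4.73 CPM that 3 counts would give. In contrast, the AT1-type chains were lower in KO, Col4a3 with a ratio of -1.24 (-1.62 to -0.87) and Col4a4 with -1.01 (-1.24 to -0.78). The 3 major fibrillar chains were higher in KO in this class, short of 2-fold, with Col3a1 at 1385 in WT and 1829 in KO, Col1a2 at 492 in WT and 920.0 in KO and Col1a1 at 257 in WT and 513 in KO.

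Col8a1 differed in 3 classes. In smooth muscle it was lower in KO, at 153 (131 to 178) in WT and 63.2 (43.8 to 88.3) in KO, from 54 WT and 11 KO cells, a log2 ratio of -1.28 (-1.85 to -0.74). In activated fibroblasts it measured 48.1 in WT and 3.42 in KO, a ratio of -3.81 (-5.07 to -2.77), but 62 of the 84 WT UMIs lay in 1 cell. In adventitial fibroblasts it was higher in KO, at 37.7 in WT and 88.9 in KO, a ratio of 1.24 (0.42 to 2.13), with 24 of the 49 KO UMIs in 1 cell. The counting intervals leave out this spread between cells. In pericytes, its top class, Col8a1 was 398 in WT and 393 in KO. Named classes held 407 of the 580 Col8a1 UMIs of kept cells in WT but only 153 of 597 in KO. Most Col8a1 UMIs of KO thus lay in cells without a class name and are not placed here.

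Among the remaining members, Col5a2 in pericytes measured 229 (168 to 306) in WT and 477 (331 to 667) in KO, a log2 ratio of 1.06 (0.38 to 1.73) that turned to -0.06 with a mitochondrial limit of 10%. Other fibrillar chains of pericytes were Col3a1, at 762 in WT and 1165 in KO, Col1a2, at 722 in WT and 941 in KO, and Col1a1, at 433 in WT and 519 in KO. Col15a1 in alveolar fibroblasts had a ratio of -1.02 (-1.56 to -0.48) from the levels above, with 12 of the 56 WT UMIs in 1 cell. It measured 3.87 in WT and 2.64 in KO in the first alveolar fibroblast cluster. In the second it was 18.1 in WT and 13.8 in KO, a ratio of -0.39 (-1.18 to 0.47). The third, with 281 WT but 33 KO cells, had 27.4 in WT and 5.84 in KO. Col7a1 in activated fibroblasts measured 36.1 in WT and 8.98 in KO, a ratio of -2.01 (-2.79 to -1.27). Col27a1 in adventitial fibroblasts measured 102 in WT and 49.0 in KO, a ratio of -1.06 (-1.80 to -0.34). Col14a1 in venous cells measured 27.7 in WT and 67.2 in KO, a ratio of 1.28 (0.18 to 2.25) that rested on 11 KO UMIs. Each of these levels lay below that of the gene's top class.

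In the epithelium, Col3a1 was lower in KO AT1 cells, at 83.4 in WT and 11.8 in KO, a ratio of -2.83 (-3.61 to -2.08) that was -0.48 without an upper limit on genes, and in transitional cells, at 37.2 in WT and 17.3 in KO, a ratio of -1.11 (-1.61 to -0.58), with 22 of the 42 WT UMIs in 1 cell and a ratio of -0.052 with at least 500 genes per cell. Lymphocytes had Col3a1 at 71.1 in WT and 20.05 in KO, lower in KO as well. Col6a1 in AT1 cells measured 34.0 in WT and 15.3 in KO, a ratio of -1.15 (-2.01 to -0.26), against 17.2 in WT and 12.8 in KO in lymphocytes. Col4a6 in AT1 cells measured 35.7 in WT and 73.1 in KO, a ratio of 1.03 (0.37 to 1.77), with 88.8 in WT and 98.2 in KO in the deep cluster. Without an upper limit on genes this ratio was -0.32, and with a mitochondrial limit of 10% that of Col6a1 was 0.41. Col5a2 in transitional cells measured 23.0 in WT and 10.7 in KO, a ratio of -1.10 (-1.74 to -0.42), with 20 of the 26 WT UMIs in 1 cell, and the ratio was 1.26 when 1 in 6 KO cells was clustered. General capillary Col1a1, at 16.9 in WT and 5.15 in KO, and aerocyte Col3a1, at 23.1 in WT and 5.82 in KO, were past 2-fold on 2 and 1 KO UMIs, and their intervals included 0. Col3a1 in general capillary cells was 35.8 in WT and 20.6 in KO, Col1a2 28.1 in WT and 18.0 in KO, Col5a2 27.7 in WT and 28.3 in KO and Col15a1 21.0 in WT and 20.6 in KO, and aerocytes had Col12a1 at 53.4 in WT and 40.7 in KO and Col15a1 at 10.2 in WT and 23.3 in KO. Smooth muscle, by comparison, had Col3a1 at 1564 in WT and 1629.9 in KO, Col1a2 at 1222 in WT and 1091 in KO and Col1a1 at 712 in WT and 584 in KO.

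Collagen chains need a shared machinery of hydroxylases, chaperones, proteases and crosslinking enzymes, and 49 such genes and collagen receptors were listed. In alveolar fibroblasts 38 of them had at least 50 UMIs, of which 0 were at least 2-fold higher and 2 lower in KO (0.854% and 1.79% of all genes). The lower ones were P4ha2, a prolyl hydroxylase subunit, at 18.0 in WT and 8.15 in KO, and Itga1, a collagen-binding integrin, at 51.9 in WT and 25.7 in KO. In activated fibroblasts 1 of 39 was lower, P4ha3, at 49.3 in WT and 24.0 in KO, and in adventitial fibroblasts 0 of 29 differed. Of all genes, 0.934% were higher and 1.71% lower in activated and 1.04% and 1.24% in adventitial fibroblasts. Serpinh1, the collagen chaperone, had a log2 ratio of -0.08 (-0.15 to -0.02) in alveolar, -0.09 (-0.18 to -0.01) in activated and -0.16 (-0.32 to 0.01) in adventitial fibroblasts. Lox, the enzyme that crosslinks fibrillar collagen, had a lower KO level in these 3 classes, with log2 ratios of -0.48 (-0.57 to -0.38), -0.62 (-0.77 to -0.47) and -0.65 (-1.001 to -0.30), short of 2-fold. Ductal fibroblasts had 2 of 29 lower (2.38% of all genes), the vesicle coat genes Sec23a, at 79.8 in WT and 34.9 in KO, and Sec24d, at 214 in WT and 105 in KO.

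Smooth muscle (30 genes), pericytes (8) and aerocytes (19) had 0 past 2-fold. Of all genes, 0.844% were higher and 5.45% lower in smooth muscle, 1.25% and 4.32% in pericytes, and 2.26% and 9.33% in aerocytes. Mesothelial cells had Dcn, a proteoglycan that binds fibrils, at 1731 in WT and 3793 in KO and Itga1 at 60.0 in WT and 13.8 in KO of 30, and venous cells P4ha1 at 31.3 in WT and 85.6 in KO of 17. The shares of all genes were 3.93% higher and 2.64% lower in mesothelial cells, and 2.24% and 8.58% in venous cells. AT1 cells had 1 of 24 higher, P3h2, a prolyl 3-hydroxylase that acts on type IV collagen, at 39.1 in WT and 81.8 in KO, and 2 lower (5.17% and 2.68% of all genes), the proteoglycans Bgn, at 128 in WT and 16.4 in KO, and Ogn, at 49.4 in WT and 13.8 in KO. Bgn and Ogn stood among the leading genes of unnamed mesenchymal clusters. Immune markers summed to 534 in WT and 22.5 in KO AT1 cells, and the part of background in the Bgn and Ogn levels was not tested. General capillary cells had 0 higher and 8 lower of 29, on 1 to 19 KO UMIs each, where 2.12% of all genes were higher and 7.41% lower. Transitional cells had 1 higher and 4 lower of 31, where 2.56% and 2.16% of all genes were. The lower ones included Itga2, the alpha chain of another collagen-binding integrin, at 75.3 in WT and 28.3 in KO, and P3h3, another prolyl 3-hydroxylase, at 62.0 in WT and 0.903 in KO, where 1 cell held 69 of the 70 WT UMIs.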

How the data were processed

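1 Pclaf WT and 1 Pclaf KO library of lung cells were measured by 10x 3' scRNA-seq. The deposited files hold UMI counts per gene and cell on GRCm38 (mm10), made by the authors with Cell Ranger (3.1.0 per the labels, 5.0.0 per the file headers). Cells with over 200 and under 5000 genes and under 20% mitochondrial UMIs were kept. Doublets were kept, and their removal with Scrublet (scanpy 1.11.5) was an alternative. Counts were scaled to 10000 UMIs and clustered on 2000 variable genes without collagens (10 principal components, 20 neighbors, Louvain, resolution 0.8). Clustering used scikit-learn 1.9.0 and python-igraph 0.11.9 in Python 3.11.15. It ran first over all cells, to set lineages, and then within each lineage. Clusters of mixed lineage or without a name entered no class. A cluster was named from at least 3 markers with a log2 fold of 1 or more, present in 10% of its cells, and its 10 leading genes were read against the name; the fold minimum was added after seeing the data. UMIs were summed per class and library (at least 30 cells) and divided by the class total. Intervals are exact at 95%. With 1 library per genotype no test was run, and genes are named by a 2-fold difference and at least 50 UMIs. TMM factors came from edgeR 4.0.16 in R 4.3.3. The ratios and their intervals were tested on simulated counts for genes of alveolar fibroblasts. Those counts held counting error only, without spread between cells, and clustering and naming were not tested in this way. Members, lists and rules were chosen with earlier results of these data known. Named genes are the ranked collagens, the 5 most abundant per class and those past 2-fold.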

Additional observations from a re-analysis of the deposited data

Results flagged for a closer look

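Col5a2 and Col8a1 moved in opposite directions between libraries in different classes, and these differences were not tested. The log2 ratio of Col5a2 in KO over WT was 1.06 in pericytes and -1.10 in transitional cells. For Col8a1 it was 1.24 in adventitial fibroblasts, against -3.81 in activated fibroblasts and -1.28 in smooth muscle. As given above, single cells held much of the UMIs in transitional cells, adventitial fibroblasts and activated fibroblasts.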

How the results depend on the processing

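Of the alternatives, 370 values of single genes and classes and 68 of the leading results stayed within their intervals or within 1.5 times the count, 73 and 59 moved, and 13 turned a difference of at least 2-fold to the opposite sign. Counting all ratios, small ones included, 46 of 525 values had the opposite sign, in 16 of 41 ratios. No paired analysis was possible because each genotype had 1 library. The cause of each change was not tested, but class membership changed with every cell filter and clustering. The type IV ratio (log2, KO over WT) in AT1 cells, 0.60, was 0.52 when mitochondrial and ribosomal protein genes were left out of the denominator, -0.35 without an upper limit on genes, -0.17 at a mitochondrial limit of 10%, -0.077 with at least 500 genes per cell, -0.065 without doublets, -0.0100 with 1 in 6 KO cells clustered, 0.30 with 20 principal components, -0.086 at resolution 0.4, -0.19 at resolution 1.2 and -0.038 with collagens kept as variable genes. In general capillary cells, -0.50 became -0.29 without an upper limit, -0.13 at the 10% limit, -0.29 with 500 genes, -0.30 and -0.28 at resolutions 0.4 and 1.2, and -0.27 with collagens kept. In pericytes, -0.27 became -0.82 at the 10% limit and -0.70 at resolution 1.2. Activated fibroblasts were not named at the 10% limit, with 1 in 6 KO cells, at resolution 0.4 or with collagens kept, and no value exists there. Mesothelial and club cells were not named with 1 in 6 KO cells, nor pericytes with 500 genes. The fibrillar ratio in activated fibroblasts, -0.26, was -0.19 with TMM, -0.054 without an upper limit, -0.35 without doublets, -0.32 with 20 components and -0.29 at resolution 1.2. In adventitial fibroblasts, -0.45, it was -0.41 with TMM, -0.50 at the 10% limit, with 500 genes and without doublets, -0.33 with 1 in 6 KO cells, -0.54 with 20 components and -0.53 at resolution 0.4. In alveolar fibroblasts, -0.03, it was 0.10 with TMM, 0.0021 with the reduced denominator, -0.0058 with lymphocyte levels subtracted, -0.058 without an upper limit, -0.095 at the 10% limit, -0.13 with 500 genes, 0.045 without doublets, 0.12 with 1 in 6 KO cells, 0.048 with 20 components, 0.054 with collagens kept, -0.34 at resolution 0.4 and -0.077 at resolution 1.2.

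A difference of at least 2-fold changed direction for the fibrillar ratio in AT1 cells (0.25 with lymphocyte levels subtracted, 0.17 with 500 genes, 0.20 without doublets, 0.13 at resolution 1.2) and aerocytes (0.43 subtracted). It also changed for Col4a6 in AT1 cells (-0.32 without an upper limit, -0.088 at the 10% limit, -0.27 at resolution 1.2), Col6a1 in AT1 cells (0.41 at the 10% limit, 0.17 at resolution 1.2), Col5a2 in pericytes (-0.056 and -0.082 under the same settings) and Col5a2 in transitional cells (1.26 with 1 in 6 KO cells). Among smaller ratios, the highest values of those negative in the main setting were 1.28 for fibrillar collagens in general capillary cells (2 of 13 above 0), 0.60 in transitional cells (1 of 13), and for type IV 0.11 in venous cells (2 of 13), 0.019 in activated fibroblasts (1 of 9), 0.0082 in alveolar fibroblasts (1 of 13) and 0.029 in aerocytes (3 of 13). The fibrillar ratio in pericytes, 0.54, was below 0 in 2 of 8, and the type IV ratio in transitional cells, 0.01, in 7 of 13. Gene and class pairs at least 2-fold higher, 7, were 17 with lymphocyte levels subtracted, 15 at 20 UMIs and 2 at 100 UMIs. Pairs lower, 13, were 32 at 20 UMIs, 6 at 100 UMIs and 5 with 1 in 6 KO cells. The number of pairs tested and the share over all genes at each setting are not given here. These counts are therefore not read as a result about collagens. Of the 34 genes ranked in KO, the top class was kept by 22 without an upper limit, 20 at the 10% limit, 21 with 1 in 6 KO cells, 19 at resolution 0.4 and 20 with collagens kept. Of 31 in WT, 20 kept it at the 10% limit and 19 with 1 in 6 KO cells. The share of alveolar fibroblasts with Col1a1 was 90.6% in WT and 94.3% in KO without thinning, and 41.1% and 40.5% at 500 UMIs.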

Other observations

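Collagens were also found in cells outside the mesenchyme, alveolus and blood capillaries. Interstitial macrophages had Col14a1 at 42.8 (38.8 to 47.2) in WT and 55.8 (33.6 to 87.2) in KO, while lymphocytes had it at 5.91 in WT and 0 in KO. Lymphatic endothelial cells, with 61 cells in WT and too few in KO, had Col23a1 at 305 (224 to 407) and Col18a1 at 246 (173 to 338). The latter is a chain that smooth muscle also held.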
